A study of Mus musculus with 50 samples.

Results

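In whole embryonic brains labelled gtf2i/gtf2i, transthyretin (Ttr) was at 32.4% of its wild-type mean, while none of the other 5 choroid plexus and roof plate genes of the set was lower by a comparable amount. The set consists of 6 genes given by name: Ttr, Folr1, Enpp2, Otx2, Lmx1a and Msx1. All 6 were found among the 11708 genes of the count table. Ttr was chosen by its level in the gtf2i/gtf2i libraries, and the other members were named with earlier results of these libraries in view. Their values in gtf2i/gtf2i against wild-type (wt) and against gtf2i embryos are therefore given as a description, without a test.

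RNA was sequenced from 18 whole brains of E13.5 mouse embryos of strain FVB/ANTJ, in 6 genotype groups of 3. The gtf2i cross held wt, gtf2i and gtf2i/gtf2i embryos, and the ird1 cross held wt, ird1 and ird1/ird1 embryos. The series asks what mutations of Gtf2i and Gtf2ird1, which encode related transcription factors, do to transcription in the developing brain. The labels name the allele once or on both sides of a slash, and do not give the kind of mutation, the sex or the litter, so p-values measure the spread between these samples. A further 32 chromatin samples of the series were not analysed here. Total counts ran from 3239117 to 7371483 per library, and levels are given as CPM, counts scaled to the library total with a correction for composition. Gtf2i was at 598 to 658 CPM in its wt group, 363 to 375 CPM in gtf2i embryos and 81.8 to 83.3 CPM in gtf2i/gtf2i embryos. In the ird1 cross, Gtf2ird1 was at 90.4 to 114 CPM in wt, 147 to 151 CPM in ird1 and 219 to 227 CPM in ird1/ird1, so its RNA was higher, not lower, in the libraries labelled with the mutant allele. In the gtf2i cross Gtf2ird1 was at 84.1 to 97.9 CPM in wt, 126 to 143 CPM in gtf2i and 245 to 286 CPM in gtf2i/gtf2i. Kdm5c, an X-linked gene transcribed from both X chromosomes in females, was at 286 to 303 CPM in the 3 wt libraries of the gtf2i cross, 379 to 401 CPM in the 3 gtf2i libraries, and 314, 397 and 384 CPM in gtf2i/gtf2i. Every gtf2i and gtf2i/gtf2i library was thus above every wt library of the cross. A model with Kdm5c therefore cannot fully separate it from genotype there.

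The choroid plexus is a secretory epithelium inside the brain ventricles that makes cerebrospinal fluid. It grows from the dorsal midline, where the roof plate and cortical hem release BMP and Wnt signals and where transcription factors such as Otx2, Lmx1a and Msx1 set the identity of the tissue. Mature choroid epithelial cells then express carriers and enzymes for the fluid, including Ttr, which carries thyroid hormone and, with retinol-binding protein, vitamin A. Folr1 is the folate receptor that moves folate across the epithelium. Enpp2, or autotaxin, is a secreted enzyme that makes lysophosphatidic acid. Otx2, Lmx1a and Msx1 are also expressed outside the choroid plexus, in the midbrain, the floor plate and the mesenchyme.

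Levels of different genes were compared per kilobase of the deposited transcript length. Over the 18 libraries Ttr averaged 172 CPM per kilobase and ranked 216 of 11700 genes with a length. Otx2 followed at 30.5 CPM per kilobase, then Msx1 at 8.91, Enpp2 at 7.82, Lmx1a at 6.93 and Folr1 at 3.81 CPM per kilobase. The precision differed in the same way: Ttr rested on 261 to 2103 counts per library, but Folr1 on 17 to 45, which alone gives a counting error of 14.9% to 24.3%. The smallest count in each library was worth 2.90 to 3.09 CPM of the unscaled total, and the lowest Folr1 library stood exactly on that minimum.

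Ttr (ENSMUSG00000061808) was measured at 62.7, 60.3 and 84.1 CPM in gtf2i/gtf2i embryos, against 170, 231 and 238 CPM in their wt group and 271, 331 and 200 CPM in gtf2i embryos. All 3 gtf2i/gtf2i libraries were lower than every other library of the series, the next lowest being an ird1 embryo at 124 CPM. Group means over 3 embryos (± SD) were 213 ± 37.2 CPM for wt, 267 ± 65.5 CPM for gtf2i and 69.0 ± 13.1 CPM for gtf2i/gtf2i. On the log2 scale the fold change of gtf2i/gtf2i was -1.63 (SE 0.184) against wt and -1.95 (SE 0.185) against gtf2i. Among all genes, ordered from the lowest log2 fold change, Ttr ranked 2 in both comparisons. In bulk tissue, fewer cells of a type and less RNA per cell cannot be told apart.

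**Figure D1:**
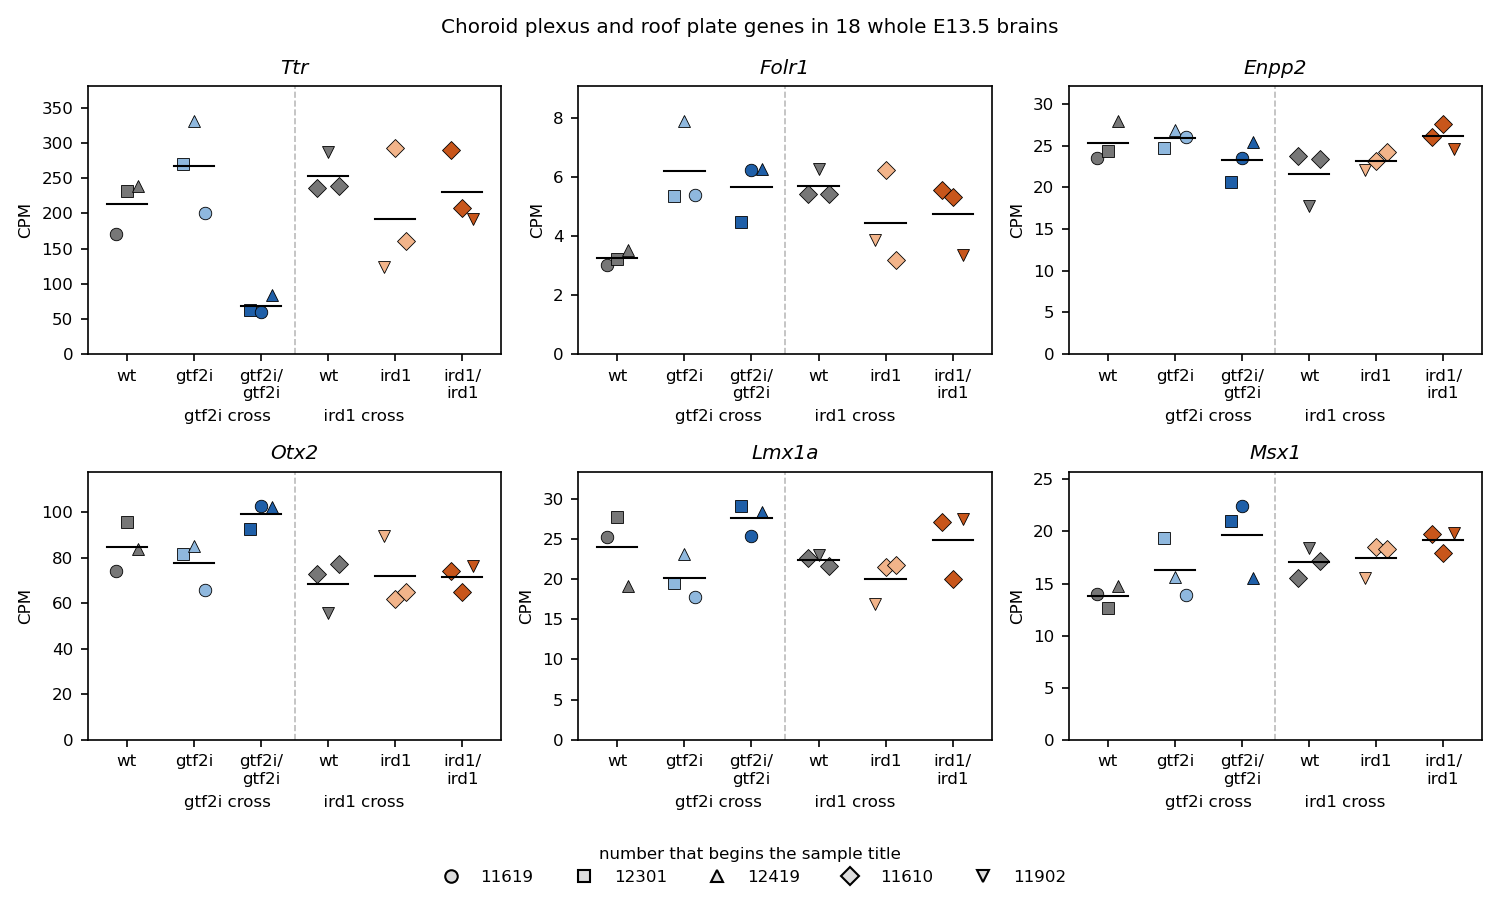
Level of each of the 6 genes (vertical axes, CPM, starting at 0) in the 18 libraries, by genotype group (horizontal axes); each point is 1 embryo, the marker shape is the number that begins its sample title, and the line is the mean of 3. Ttr in gtf2i/gtf2i lies between 60.3 and 84.1 CPM, under all other libraries, while the points of the other genes are spread over similar ranges in most groups.

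The sample titles of the gtf2i cross begin with 1 of 3 numbers, and each number holds 1 embryo of each genotype. Ttr varied with these numbers: within each genotype the embryo numbered 11619 had the lowest Ttr and the embryo numbered 12419 the highest. Taken within a number, Ttr in gtf2i/gtf2i was 35.4% of wt for 11619, 27.1% for 12301 and 35.3% for 12419. In gtf2i it was 117%, 117% and 139% of wt in the same order.

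Folr1 (ENSMUSG00000001827; GRCm38.p6, chromosome 7, 101858331 to 101870788), the folate receptor, went the other way. The wt libraries had 3.00, 3.21 and 3.53 CPM, the gtf2i libraries 5.35, 7.89 and 5.39 CPM, and the gtf2i/gtf2i libraries 4.47, 6.24 and 6.26 CPM. The wt libraries were below all 6 libraries labelled with the mutant allele. Its log2 fold change in gtf2i/gtf2i against wt was 0.78 (SE 0.246) and against gtf2i it was -0.13 (SE 0.222), or 0.021 with Kdm5c in the model. These wt libraries were also low beside wt embryos of the other cross, at 5.42, 6.25 and 5.41 CPM. Between the wt groups the log2 fold change was -0.78 (SE 0.279, unadjusted p = 0.0111, adjusted p = 0.0805, edgeR). Folr1 and Msx1 did not overlap there, and 32% of all genes did not. By edgeR, 0% of all genes were called between the wt groups, 32.7% had an unadjusted p under 0.05, and DESeq2 called 1561 genes. For Folr1, 4 of the 18 libraries lay within 20% of the table's minimum. With the level of Kdm5c in the model, the Folr1 difference of gtf2i/gtf2i from wt was 0.29.

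Enpp2 (ENSMUSG00000022425; chromosome 15, 54838901 to 54952789) differed little. The wt libraries had 23.5, 24.4 and 28.0 CPM, the gtf2i libraries 24.7, 26.9 and 26.1 CPM, and the gtf2i/gtf2i libraries 20.6, 23.6 and 25.5 CPM. The 3 groups overlapped. In gtf2i/gtf2i its log2 fold change was -0.13 (SE 0.128) against wt and -0.16 (SE 0.128) against gtf2i, and with Kdm5c in the model the first value was -0.32.

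Among the transcription factors, Otx2 (ENSMUSG00000021848; chromosome 14, 48656781 to 48667644), a homeobox factor required for choroid plexus formation and for the midbrain, was at 92.6, 103 and 102 CPM in gtf2i/gtf2i embryos. It was at 74.0, 95.6 and 84.0 CPM in wt embryos and at 81.8, 85.2 and 65.9 CPM in gtf2i embryos. The gtf2i/gtf2i libraries were above every gtf2i library but overlapped with wt. In gtf2i/gtf2i its log2 fold change was 0.22 (SE 0.116) against wt and 0.35 (SE 0.116) against gtf2i. With Kdm5c in the model the first value was -0.036.

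Lmx1a (ENSMUSG00000026686; chromosome 1, 167688230 to 167848741), a LIM homeobox factor of the roof plate and cortical hem, was at 29.0, 25.4 and 28.4 CPM in gtf2i/gtf2i embryos. It was at 25.2, 27.8 and 19.1 CPM in wt embryos and at 19.5, 23.1 and 17.7 CPM in gtf2i embryos. The gtf2i/gtf2i libraries were again above every gtf2i library and overlapped with wt. Its log2 fold change was 0.21 (SE 0.153) against wt and 0.46 (SE 0.155) against gtf2i.

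Msx1 (ENSMUSG00000048450; chromosome 5, 37820491 to 37824585), a homeobox gene induced by BMP signals, was at 21.0, 22.4 and 15.6 CPM in gtf2i/gtf2i embryos. It was at 14.0, 12.7 and 14.8 CPM in wt embryos and at 19.3, 15.6 and 13.9 CPM in gtf2i embryos. The gtf2i/gtf2i and wt groups were separated by a narrow margin: the lowest gtf2i/gtf2i library was at 15.6 CPM and the highest wt library at 14.8 CPM. Its log2 fold change was 0.48 (SE 0.172) against wt and 0.26 (SE 0.170) against gtf2i.

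Against wt, the gtf2i/gtf2i libraries did not overlap for 3 of the 6 genes: Ttr was lower, and Folr1 and Msx1 were higher. Over all genes, 16.8% did not overlap in this comparison, 8.98% lower and 7.82% higher, and 0.94% were called, that is, passed an adjusted p of 0.05 in edgeR's quasi-likelihood test. Against gtf2i, 3 of the 6 genes also did not overlap, with Ttr lower and with Otx2 and Lmx1a higher, where 19.2% of all genes did not overlap, 10% lower and 9.17% higher, and 3.12% were called. Both comparisons use the same gtf2i/gtf2i libraries. In neither was another member non-overlapping in the direction of Ttr.

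**Figure D2:**
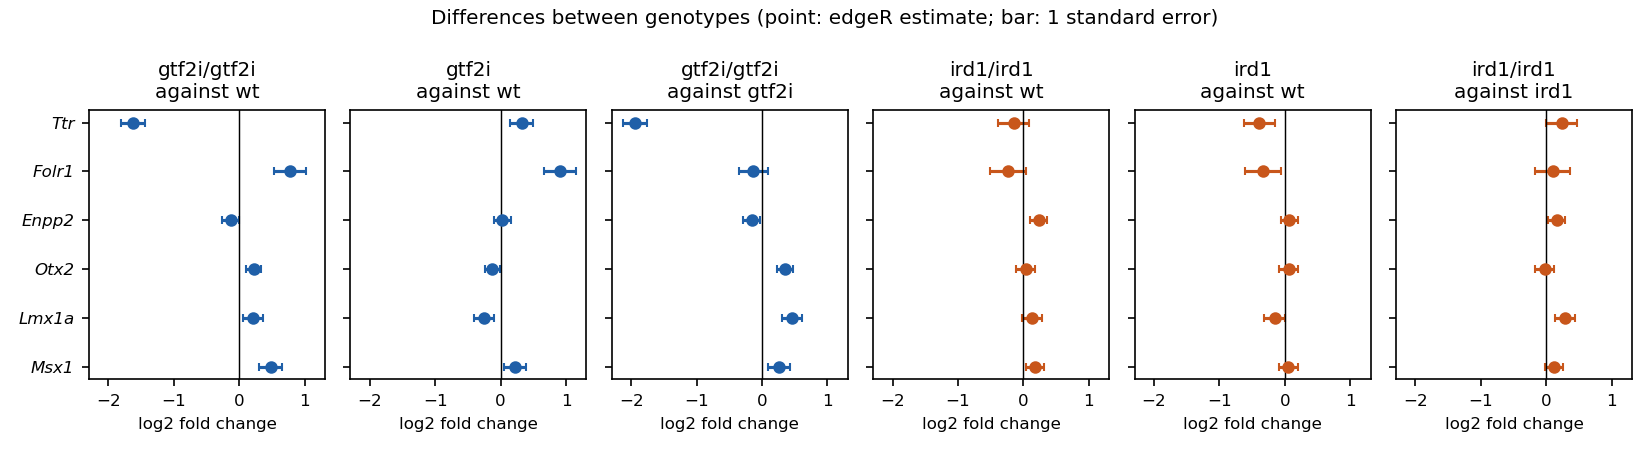
Log2 fold change (horizontal axes) of the 6 genes in each comparison of genotypes; points are edgeR estimates and bars 1 standard error. Ttr lies at -1.63 and -1.95 in the comparisons of gtf2i/gtf2i, and the other points lie between -0.39 and 0.91.

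The ratio of counts within a library does not depend on how libraries are scaled. Each count of Enpp2 was accompanied by 8.42 ± 1.12 counts of Ttr in wt and by 2.97 ± 0.376 in gtf2i/gtf2i (SD, n = 3). For Folr1 the ratio was 65.4 ± 7.80 in wt and 12.4 ± 2.37 in gtf2i/gtf2i. For the transcription factors the means were 2.52 and 0.696 Ttr counts per Otx2 count, 9.18 and 2.50 per Lmx1a count, and 15.5 and 3.69 per Msx1 count. For each of the 5 genes the 3 gtf2i/gtf2i ratios were below the ratios of all 15 other libraries. These ratios restate the Ttr level by which the gene was chosen and are a description.

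**Figure D3:**
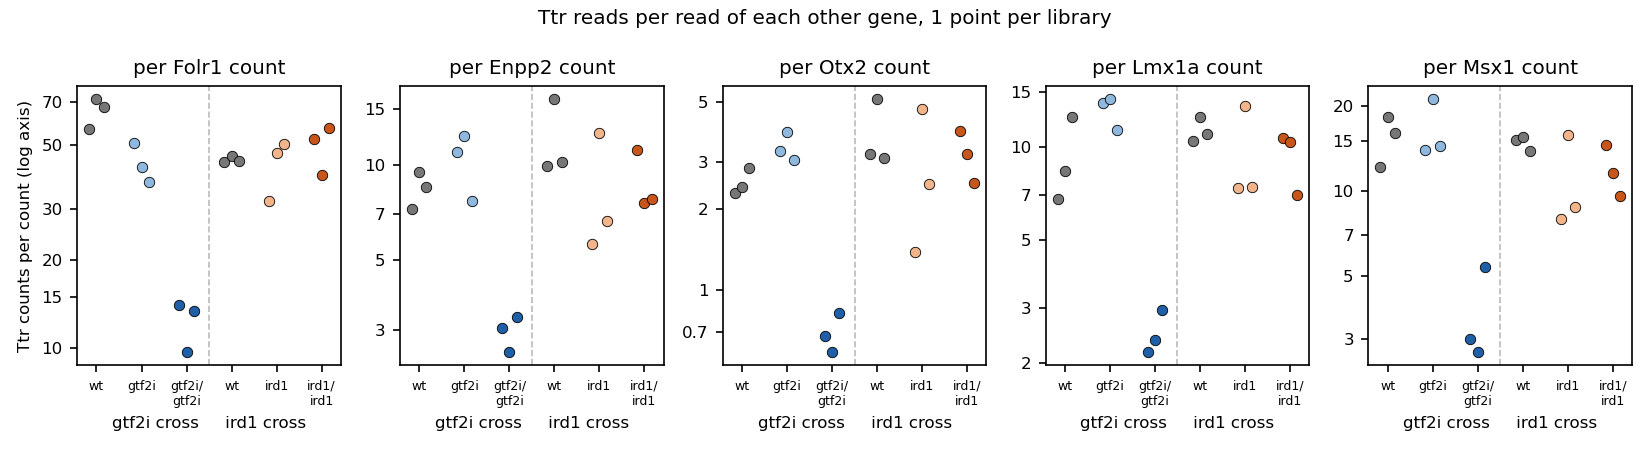
Read counts of Ttr divided by those of each other gene (vertical axes, logarithmic) in the 18 libraries, by genotype group; each point is 1 embryo. The gtf2i/gtf2i points lie under the rest in each panel, between 9.67 and 14.0 for Folr1 and between 0.588 and 0.822 for Otx2.

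Embryos labelled gtf2i were compared with the same wt group. Against wt, the log2 fold change of Ttr in gtf2i was 0.32 (SE 0.173), with an unadjusted p of 0.0847 and an adjusted p of 1.00 by edgeR, and the groups overlapped. This fit ignores the title number, with which Ttr varied. A fit with that number as a block gave 0.31 (SE 0.0826, adjusted p = 0.999, edgeR). The wt libraries are shared with the comparison of gtf2i/gtf2i. Of the 6 genes, 0 were called by edgeR and 0 by DESeq2, and 1 had an unadjusted p under 0.05, Folr1 at a log2 fold change of 0.91 (SE 0.239, unadjusted p = 0.00194). Folr1 was also the 1 member whose groups did not overlap. Over all genes 0.00854% were called, that is Gtf2i itself, 1.6% had an unadjusted p under 0.05, and 7.27% did not overlap. The log2 fold changes of Enpp2, Otx2, Lmx1a and Msx1 were 0.028, -0.13, -0.25 and 0.22.

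With Kdm5c in the model, Ttr was at -0.11, Enpp2 at -0.23 and Folr1 at 0.27 in this comparison.

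The ird1 cross shares no library with the comparison from which Ttr was chosen, and there the members were tested. Ttr was at 235, 287 and 238 CPM in wt, at 124, 292 and 161 CPM in ird1, and at 289, 208 and 192 CPM in ird1/ird1. All 3 groups overlapped. The difference of ird1/ird1 against wt was -0.15 on the log2 scale (SE 0.237, 95% interval -0.73 to 0.43 at 6 residual degrees of freedom, adjusted p = 0.740, edgeR). In ird1 against wt it was -0.39 (SE 0.238, adjusted p = 0.997), and in ird1/ird1 against ird1 it was 0.24 (SE 0.236, adjusted p = 0.777). The ird1 embryos varied widely, with a coefficient of variation of 46.0% for Ttr.

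Folr1 in the ird1 cross was at 5.42, 6.25 and 5.41 CPM in wt, at 3.88, 6.25 and 3.20 CPM in ird1, and at 5.54, 5.31 and 3.35 CPM in ird1/ird1. Its groups overlapped in all 3 comparisons, with log2 fold changes of -0.23, -0.33 and 0.10. Enpp2 was at 23.8, 17.8 and 23.4 CPM in wt, at 22.0, 23.2 and 24.2 CPM in ird1, and at 26.0, 27.6 and 24.6 CPM in ird1/ird1. The ird1/ird1 libraries were above all others of the cross for this gene, though the test was not passed: the log2 fold change against wt was 0.24 (SE 0.133, 95% interval -0.09 to 0.56, adjusted p = 0.349, edgeR).

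Otx2, Lmx1a and Msx1 showed overlapping groups throughout the ird1 cross. Otx2 ranged from 55.6 to 89.4 CPM, Lmx1a from 16.9 to 27.5 CPM and Msx1 from 15.5 to 19.9 CPM over its 9 libraries. In ird1/ird1 against wt the log2 fold changes were 0.038, 0.14 and 0.18, with 95% intervals of -0.31 to 0.39, -0.24 to 0.52 and -0.17 to 0.52. Of the 6 members, 0 were called in ird1/ird1 against wt, in ird1 against wt and in ird1/ird1 against ird1, both by edgeR and by DESeq2, and 0 had an unadjusted p under 0.05. Over all genes the called shares were 0.00854% (Gtf2ird1), 0% and 0%, where 16.1%, 3.02% and 4.66% had an unadjusted p under 0.05, and DESeq2 called 1 gene in each of the latter comparisons. Non-overlap covered 1, 0 and 1 of the members, in both cases Enpp2, beside 26.9%, 7.04% and 17% of all genes.

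Whether Ttr varied with the other genes among embryos of 1 genotype was examined after subtracting each group's mean log2 CPM, which leaves deviations that use no difference between genotypes. Over the 18 libraries the deviations of Folr1 followed those of Ttr with a Pearson r of 0.744 and a Spearman rho of 0.719, rank 9 of 11707 genes. Taken alone, the 9 libraries of the gtf2i cross gave an r of 0.649 and those of the ird1 cross 0.791, and r was 0.593 without the 2 libraries farthest in Ttr. Both values of a point come from 1 library and share its depth, so these are descriptions. The r with Ttr was 0.406 for Lmx1a, 0.144 for Msx1, 0.139 for Enpp2 and -0.139 for Otx2, whose r was 0.800 over the gtf2i cross but -0.617 over the other. Folr1 thus varied with Ttr within groups while its difference between gtf2i/gtf2i and wt had the opposite sign.

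**Figure D4:**
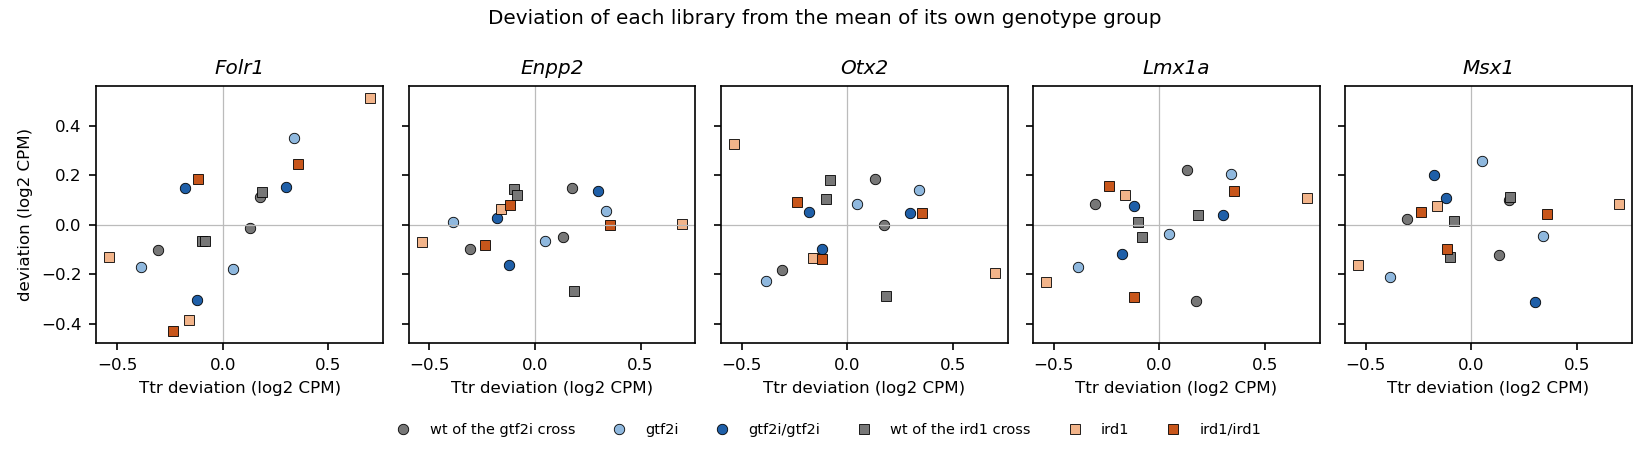
Deviation of each library from its own group mean in log2 CPM, for Ttr (horizontal axes) and each other gene (vertical axes); each point is 1 embryo, circles the gtf2i cross and squares the ird1 cross. The Folr1 points rise from lower left to upper right (r 0.744 over 18 libraries), and those of Enpp2 and Otx2 do not (r 0.139 and -0.139).

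The 5 genes whose within-group deviations were most like those of Ttr were Fbxl2 (r 0.871), Wfikkn2 (0.789), Vwa5b2 (0.787), Fer1l5 (0.766) and Foxj1 (0.752). Wfikkn2 is a protease inhibitor known from the choroid plexus, and Foxj1 is the master factor of motile cilia, which choroid epithelial cells carry. In gtf2i/gtf2i against wt the log2 fold change was -0.44 (SE 0.217, adjusted p = 0.386) for Wfikkn2 and -0.12 (SE 0.142, adjusted p = 0.796) for Foxj1 by edgeR. It was -0.88 (SE 0.253, adjusted p = 0.103) for Vwa5b2, -0.11 for Fbxl2 and 0.12 for Fer1l5. None of the 5 passed the test, which 0.94% of all genes did. In a model of each gene on group and log2 CPM of Ttr, 0 of 11707 genes (0%) were called by edgeR and 313 (2.67%) had an unadjusted p under 0.05. The slope was 0.66 for Folr1 (SE 0.194, unadjusted p = 0.00293), 0.83 for Wfikkn2 (SE 0.174) and 0.37 for Foxj1 (SE 0.113). Wfikkn2 and Foxj1 were picked for their likeness to Ttr in these same libraries, so their slopes restate that choice.

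When the 18 libraries were taken with the genotype differences left in, other genes were most like Ttr. These were Ndrg2 (r 0.917), Nfix (0.891), Neurod2 (0.882), Camk2b (0.879) and Sv2b (0.867), none of them a choroid plexus marker. Neurod2 encodes a transcription factor of cortical neurons. Their log2 fold changes in gtf2i/gtf2i against wt were -0.79, -0.98, -1.25, -1.14 and -0.9998. These values are a description, since likeness to Ttr with the genotype difference left in already fixes their direction. Neurod2 is also in the list of telencephalon genes, where it is counted with the others. By this measure Folr1 had an r of 0.114 with Ttr, Enpp2 0.207, Lmx1a -0.327, Msx1 -0.294 and Otx2 -0.598. These correlations include the difference by which Ttr was chosen.

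To set the 6 genes beside their tissue, 41 further genes known from the choroid plexus epithelium were listed, of which 17 were in the table. Only genes above about 3 CPM in every library are in it. A listed gene that fell below that level in gtf2i/gtf2i would be missing from the counts, here and in the lists below. Igf2, Igfbp2, Sulf1 and Slc12a2 are also expressed in mesenchyme, endothelium or neural tissue. In gtf2i/gtf2i against wt, 1 of the 17 rose and 0 fell, where 0.41% of all genes rose and 0.53% fell. The median log2 fold change of the list was 0.089, beside 0.0016 for all genes, with 10 above 0 and 7 below, and 4 were higher and 2 lower at an unadjusted p under 0.05, as were 6.08% and 8.3% of all genes. The gene that rose was Ace, angiotensin-converting enzyme, at 5.80 ± 1.81 CPM in wt and 14.0 ± 0.791 CPM in gtf2i/gtf2i (log2 fold change 1.23, SE 0.207, adjusted p = 0.0119, edgeR). It kept its call without each of the 6 libraries in turn, with log2 fold changes of 1.09 to 1.54. The call was lost with Kdm5c in the model and in a fit of these 2 groups alone, where the log2 fold change was 1.25 and 1.24. The 3 genes of the list with the highest levels were Igfbp2 at 0.18, Slc29a4 at -0.33 and Sulf1 at 0.59, none called by edgeR. Sulf1 was called by DESeq2 and in the edgeR fit of all 18 libraries (adjusted p = 0.00914 and 0.0351). The summed level of the 17 genes was 815 to 861 CPM in wt and 885 to 947 CPM in gtf2i/gtf2i.

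Some epithelial genes were lower without passing the test. Libraries did not overlap for 7 of the 17 genes, beside 16.8% of all genes: Wfikkn2, Spint2 and Slc29a4 were lower, and Ace, Igf2, Slc4a2 and Sulf1 were higher. The genes in this paragraph other than Ace, Slc29a4 and Sulf1 were chosen after their values were seen. Spint2, a protease inhibitor of epithelia, was at -0.43 (SE 0.173, adjusted p = 0.260) and Slc29a4, a monoamine transporter, at -0.33 (SE 0.104, adjusted p = 0.136). The chloride channel gene Clic6 was at -0.10 and the cation channel gene Trpm3 at -0.36, while the carbonic anhydrase gene Car14 was at 0.36 and the retinol receptor gene Stra6 at 0.10. With the title number as a block, which pairs the embryos of this comparison, 3 of the 17 were called: Ace at 1.24, Sulf1 at 0.60 and Slc29a4 at -0.33 (adjusted p = 0.00217, 0.0152 and 0.0351, edgeR), where 624 of all 11708 genes were called. Without gtf2i/gtf2i replicate 3, 5 were called, where 1159 of all genes were. Slco1c1 (-0.69) and Slc29a4 (-0.42) were lower, and Ace (1.18), Sulf1 (0.49) and Igfbp2 (0.32) were higher.

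Of 26 genes of the roof plate and dorsal midline, 19 were in the table. In gtf2i/gtf2i against wt 0 were called by edgeR and 0 by DESeq2, and 2 were higher and 0 lower at an unadjusted p under 0.05, as were 6.08% and 8.3% of all genes. The median log2 fold change was 0.12, with 13 above 0 and 6 below. The 3 genes with the highest levels were Zic1 at -0.089, Zic2 at 0.0083 and Axin2, a target of Wnt signalling, at 0.12. With the title number as a block 1 was called, Rspo2, a secreted enhancer of Wnt signalling, at 0.51 (SE 0.132, adjusted p = 0.0373), where 624 of all 11708 genes were called. Lmx1b was called without wt replicate 2 of the gtf2i cross, at 0.71, and Rspo2 without gtf2i/gtf2i replicate 3, at 0.59, where 1159 of all genes were called. The summed level of the 19 genes was 920 to 957 CPM in wt and 953 to 1006 CPM in gtf2i/gtf2i.

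**Figure D5:**
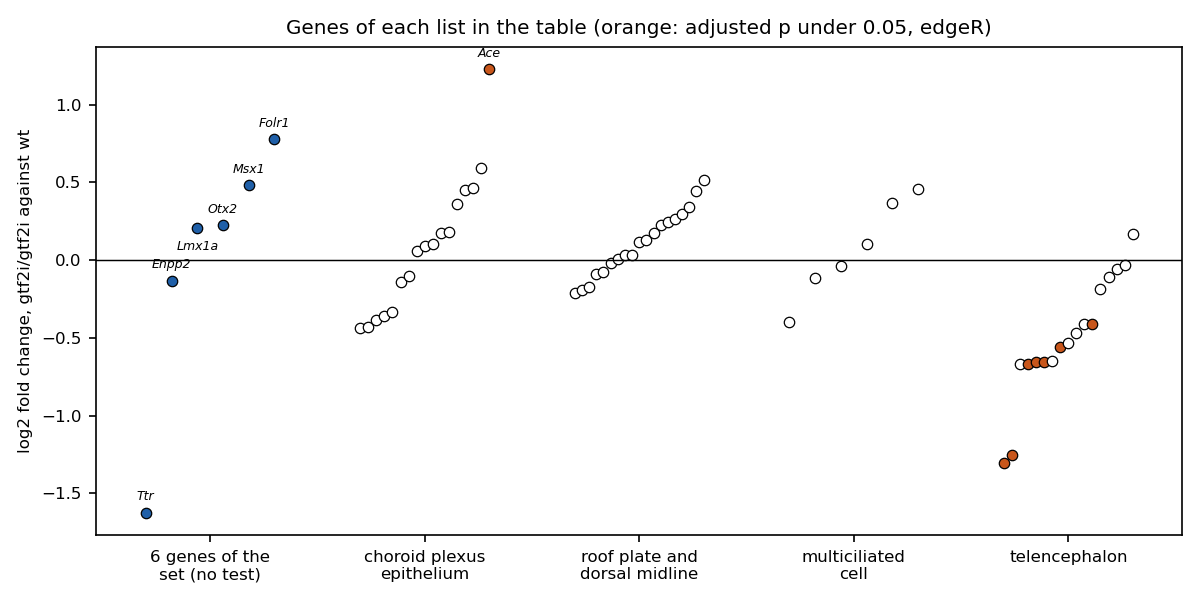
Log2 fold change of gtf2i/gtf2i against wt (vertical axis) for the 6 genes of the set, given without a test, and for the genes of 4 lists in the table; each point is 1 gene, and orange marks an adjusted p under 0.05 in edgeR. Ttr at -1.63 is below all genes of the choroid plexus and roof plate lists, where Ace at 1.23 is the 1 orange point, and 7 of 17 telencephalon genes are orange and below 0.

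Against gtf2i embryos, 1 of the 17 choroid plexus genes was called, again Ace (log2 fold change 0.97, SE 0.202, adjusted p = 0.0231, edgeR), beside 3.12% of all genes. This call was lost with Kdm5c in the model, at 0.96, and when any of gtf2i replicates 1, 2 and 3 or gtf2i/gtf2i replicates 1 and 2 was left out, with log2 fold changes of 0.88 to 1.10 over all 6 omissions. Without gtf2i/gtf2i replicate 3, 6 genes of the list were called, where 1376 of all genes were: Ace, Igfbp2 and Pcolce higher, and Wfikkn2 (-0.78), Slc29a4 (-0.40) and Vat1l (-0.39) lower. Of the 19 roof plate genes, 0 were called by edgeR, 1 by DESeq2 (Rspo1, at 0.83) and 7 had an unadjusted p under 0.05, all higher, as had 7.14% of all genes. Called shares over all genes were 1.33% higher and 1.79% lower. Without gtf2i/gtf2i replicate 3, 4 were called, Lmx1b, Wnt8b, Rspo1 and Rspo2, all higher. In gtf2i against wt and in the 3 comparisons of the ird1 cross, 0 genes of both lists were called by edgeR and by DESeq2. At an unadjusted p under 0.05, 1 choroid plexus gene was lower in gtf2i against wt, 1 was higher in ird1/ird1 against wt and 2 were higher in ird1/ird1 against ird1, where the shares of all genes in either direction were 1.6%, 16.1% and 4.66%. The roof plate list had 1 lower, 1 higher and 0 genes in the same comparisons, and both lists had 0 in ird1 against wt.

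The multiciliated cell list, which holds the motile cilia genes shared by choroid epithelium and ependyma, had 6 of its 15 genes in the table. In gtf2i/gtf2i against wt 0 were called by edgeR and 0 by DESeq2, 2 were higher and 1 lower at an unadjusted p under 0.05, beside 6.08% and 8.3% of all genes, and the median log2 fold change was 0.033. Its 3 most abundant genes were Rfx3 at 0.10, Ccdc40 at 0.36 and Foxj1 at -0.12. The summed level was 188 to 225 CPM in wt and 197 to 234 CPM in gtf2i/gtf2i.

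Genes that act with the proteins of the set were counted as well. Of 12 genes for handling thyroid hormone and retinoids, which Ttr carries, 1 fell in gtf2i/gtf2i against wt and 0 rose, where 0.53% of all genes fell and 0.41% rose: Thra, the thyroid hormone receptor alpha, at 444 ± 28.6 CPM in wt and 329 ± 17.6 CPM in gtf2i/gtf2i (log2 fold change -0.44, SE 0.0878, adjusted p = 0.0319, edgeR). With the block, where 624 of all 11708 genes were called, 4 of the list were, among them Thra lower, and the retinoic acid carrier Crabp2 and the thyroid hormone binding protein Crym higher. The count was 0 in the groups alone, with Kdm5c, and without wt replicate 1, wt replicate 3 or gtf2i/gtf2i replicate 2, and 5 without gtf2i/gtf2i replicate 3, where 1159 of all genes were called. The log2 fold change of Thra was -0.48 to -0.43 over the other settings and -0.49 to -0.39 with a library left out. Against gtf2i, 4 rose and 3 fell, where 1.33% of all genes rose and 1.79% fell. These 7 became 1 with Kdm5c, 3, 0 and 0 without gtf2i replicates 1, 2 and 3, and 1 and 0 without gtf2i/gtf2i replicates 1 and 2. The genes that rose were Crym (0.88), Crabp2 (0.81), Crabp1 (0.81) and the retinoid X receptor gene Rxra (0.46), and those that fell included Rxrg (-0.93) and Thra (-0.39).

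Partners of the other members were counted in the same comparison, where 6.08% of all genes were higher and 8.3% lower at an unadjusted p under 0.05 and 624 of 11708 were called with the block. Of 14 genes for folate uptake and use, beside Folr1, 0 were called in gtf2i/gtf2i against wt by edgeR and 0 by DESeq2, and 1 had an unadjusted p under 0.05, Mthfd1l at 0.52, which was called with the block (adjusted p = 0.0274). The folate carriers Slc19a1 and Slc46a1 were at log2 fold changes of 0.0023 and 0.036. Of 8 genes of lysophosphatidic acid signalling, beside Enpp2, 0 were called by either tool and 1 had an unadjusted p under 0.05, Enpp5 at -0.55, which was called with the block (adjusted p = 0.0268). Of 18 genes of BMP signalling, which induces Msx1, 0 were called by either tool and 3 had an unadjusted p under 0.05. The BMP target genes Id1 and Id3 were at 0.45 and 0.29, with adjusted p of 0.362 and 0.345 by edgeR. Carriers, receptors and Id genes in this paragraph were picked after their values were seen.

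Markers of other tissues that could hold the same RNAs moved in part with the gtf2i/gtf2i genotype. Of 12 liver and yolk sac genes, another strong source of Ttr RNA in the embryo, 0 were in the table. Of 7 pigment epithelium and pigment cell genes 2 were in the table, Dct at a log2 fold change of -0.82 and Rlbp1 at -0.47, neither called. Their summed level was 21.0 to 26.7 CPM in wt and 12.1 to 21.2 CPM in gtf2i/gtf2i. Of 17 telencephalon genes, 7 fell in gtf2i/gtf2i against wt and 0 rose, where 0.53% of all genes fell. Among those that fell were Neurod6 (-1.30), Neurod2 (-1.25), Bcl11b (-0.67), Eomes (-0.66), Tbr1 (-0.65) and Dlx1 (-0.41). The count was 11 with the block, all lower, 3 in a fit of these groups alone and 0 with Kdm5c in the model, where 624, 31 and 7 of all 11708 genes were called. With Kdm5c the log2 fold changes were -1.48 for Neurod6, -1.26 for Neurod2, -0.82 for Bcl11b and -0.55 for Tbr1, and -0.30 for Eomes and -0.25 for Dlx1. The count was 3 without wt replicate 3 and 4 without gtf2i/gtf2i replicate 2, where 28 and 36 of all genes were called. Leaving out a library gave -1.46 to -1.11 for Neurod6, -1.40 to -1.02 for Neurod2 and -0.83 to -0.55 for Bcl11b. It gave -0.83 to -0.49 for Eomes, -0.71 to -0.58 for Tbr1 and -0.47 to -0.35 for Dlx1. The summed level was 1898 to 2135 CPM in wt and 1423 to 1555 CPM in gtf2i/gtf2i. Of 8 red blood cell genes, 2 rose, Slc4a1 (0.83) and Hbb-y (0.76), where 0.41% of all genes rose. In the same fits the count was 5 with the block, 0 in the groups alone and 0 with Kdm5c, where Slc4a1 was at 0.77 and Hbb-y at 0.27. The count was 0 without wt replicate 2, wt replicate 3 or gtf2i/gtf2i replicate 2, and 4 without gtf2i/gtf2i replicate 3, where 1159 of all genes were called. Slc4a1 was at 0.66 to 1.02 and Hbb-y at 0.56 to 0.90 with a library left out. The sum of the 8 genes was 4091 to 5314 CPM in wt and 5790 to 9184 CPM in gtf2i/gtf2i. The part of these differences, and of Kdm5c, in the values of Ttr was not tested. Ttr was at -1.94 (SE 0.336) with Kdm5c in the model and at -1.63 (SE 0.184) without it. That model cannot fully separate Kdm5c from genotype, because the wt libraries of this cross were below all the others in Kdm5c.

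For the regulatory sequence of the set, RefSeq (GRCm38.p6) gave promoter windows, running from 250 bases before to 50 bases after a start, for Otx2, Lmx1a and Msx1. They were searched on both strands for GGATTA, a core motif known for Gtf2ird1 and shared with the Otx2 protein, which 7.06% of 32851 mouse promoter windows hold. It was found in 1 of the 4 windows of Otx2 and in 0 of the windows of Lmx1a and Msx1. No window was at hand for Ttr, Folr1 and Enpp2, which were not searched. That Otx2 window, at chr14:48665060-48665359 on the minus strand, is shown because it is the 1 match among the windows searched for the members, with the motif in capitals.
Otx2: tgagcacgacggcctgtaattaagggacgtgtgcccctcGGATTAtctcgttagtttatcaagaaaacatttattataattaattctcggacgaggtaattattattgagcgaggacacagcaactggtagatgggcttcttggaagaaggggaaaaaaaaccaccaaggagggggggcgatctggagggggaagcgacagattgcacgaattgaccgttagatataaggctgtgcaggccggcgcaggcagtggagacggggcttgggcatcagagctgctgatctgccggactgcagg
The shorter motif CANNTG, an E-box, was present in 72.3% of all windows, in 3 of the 4 windows of Otx2 and in those of Lmx1a and Msx1. A match is a description of these letters only. In the ird1 cross, the log2 fold change of Otx2 in ird1/ird1 against wt was 0.038 (SE 0.144).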

How the data were processed

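Gene-level read counts, whole numbers with no normalization, were deposited for 18 RNA libraries and 11708 genes. Per the labels' protocols, ribosomal RNA was depleted before library preparation. The submitters' processing notes name Trimmomatic, STAR, HTSeq and mm10; versions, settings and strand are not given in the sources used here. The table holds only genes above about 3 CPM in every library, so a gene silent in 1 group is not analysed here, and 0 columns belonged to other samples.

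Library scaling was by TMM (trimmed mean of M values) and the low-count filter was filterByExpr, which removed 0 genes. Tests were edgeR 4.0.16's quasi-likelihood F tests, adjusted by Benjamini-Hochberg (R 4.3.3, limma 3.58.1, DESeq2 1.42.0). Contrasts within a cross used its 9 libraries (6 residual degrees of freedom). The contrast of the wt groups and the slope on Ttr used all 18. Log2 CPM for correlations had a prior count of 2. CPM for levels used TMM over the 18 libraries. The test was run on simulated data: of 100 genes changed by a log2 of 1 in gtf2i/gtf2i against wt, 91 were called, and of 100 changed by 0.5, 41. Of 11508 unchanged genes, 9 were called. The simulated counts were drawn independently, with no difference by title number or Kdm5c, so recovery in the real libraries may differ.

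Members and lists were chosen with earlier results of these data known. Named genes were the members, Gtf2i and Gtf2ird1, list genes called in any contrast, the 3 most abundant genes of each list, the 5 genes most like Ttr by either measure and the 3 most like each other member; some named by this rule are not reported here.

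The numbers that begin the titles are shared by 1 embryo of each genotype in the gtf2i cross. Deviations from the group means correlated at 0.377, 0.103 and 0.520 between same-numbered gtf2i/gtf2i and wt embryos. They correlated at 0.280, 0.354 and 0.0484 between gtf2i and wt, and at 0.0614, 0.114 and 0.0576 between gtf2i/gtf2i and gtf2i. All main fits of genotypes were unpaired, with the group as their only term. The title number entered only as a block in alternative fits, which were run for each comparison within a cross. Alternatives were DESeq2, other scalings and filters, the block, other sets of libraries, Kdm5c as a covariate and leaving out each library.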

Additional observations from a re-analysis of the deposited data

How the results depend on the processing

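Ttr in gtf2i/gtf2i against wt ranged from -1.94 to -1.62 over the other settings with all libraries kept, and from -1.79 to -1.53 with a library left out. Counts of called genes moved far more. In gtf2i/gtf2i against wt, 110 genes became 322 with DESeq2, 624 with the replicate block, 31 in a fit of these groups alone, 262 with all 18 libraries and 7 with Kdm5c. It was 28 to 1159 when each library was left out: 68 without wt replicate 1, 28 without wt replicate 3, 66 and 36 without gtf2i/gtf2i replicates 1 and 2, and 1159 without gtf2i/gtf2i replicate 3. Against gtf2i, 365 became 892 with the block and 161 with Kdm5c, and 67 to 1376 with a library left out. These were 67 and 70 without gtf2i replicates 2 and 3, 134 and 83 without gtf2i/gtf2i replicates 1 and 2, and 1376 without gtf2i/gtf2i replicate 3. In gtf2i against wt, 1 became 6 with DESeq2, 2 with the block, 5 in the groups alone, 3 with all libraries and 0 with Kdm5c. In ird1 against wt, 0 became 1 with DESeq2, library totals or all libraries, and 0 to 1 with a library left out. In ird1/ird1 against ird1, 0 became 1 with DESeq2, the groups alone or all libraries. Between the wt groups, 0 became 1561 with DESeq2 and 0 to 2076 with a library left out, reaching 2076 where the gtf2i cross lacked wt replicate 1 and 1032 where the ird1 cross did. With the block, 1 gene had a called slope on Ttr, the RNA gene Rpph1 (0.81).

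Choroid plexus genes called against wt were 2 with DESeq2, 3 with the block, 0 in the groups alone, 2 with all libraries, 0 with Kdm5c and 1 to 5 with a library left out (2 without wt replicate 2). Against gtf2i they were 2 with DESeq2, 5 with the block (Clic6, Wfikkn2 and Slc29a4 lower, Ace and Sulf1 higher), 2 in the groups alone, 0 with Kdm5c and 0 to 6 with a library left out. Roof plate genes called were 1 with the block against wt (0 to 1 with a library left out), and against gtf2i 1 with DESeq2, 4 with the block, 1 in the groups alone and 0 to 4 with a library left out.

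Some signs turned. With Kdm5c, Otx2 in gtf2i/gtf2i against wt was -0.036, and Ttr and Enpp2 in gtf2i against wt were -0.11 and -0.23. Folr1 in gtf2i/gtf2i against gtf2i was 0.021 with Kdm5c and ran from -0.23 to 0.065 with a library left out. The slope on Ttr was -0.14 for Enpp2 with the block, and 0.44 for Otx2 and -0.12 for Msx1 in the gtf2i cross alone. With a library left out, Enpp2 in gtf2i against wt ran from -0.023 to 0.11. Against wt, Otx2 ran from -0.074 to 0.13 in ird1/ird1 and from -0.12 to 0.15 in ird1, where Msx1 ran from -0.013 to 0.14 and Enpp2 from -0.026 to 0.15. In ird1/ird1 against ird1, Otx2 ran from -0.11 to 0.17 and Folr1 from -0.080 to 0.44. Lmx1a between the wt groups ran from -0.021 to 0.24, and the slopes from -0.16 to 0.14 for Otx2 and from -0.014 to 0.19 for Msx1. The cause of these shifts was not tested. The stricter filter gave no value for Folr1, whose 17 to 45 counts limit its precision, and the fit without a filter was the same as with it.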

Other observations

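Other members had their own most similar genes by within-group deviations over the 18 libraries. Folr1 was most like Fer1l5 (r 0.868), Usp11 (0.851) and Kcnd1 (0.822). Kcnd1, a potassium channel gene, rose in gtf2i/gtf2i against wt, from 5.84 to 11.3 CPM (log2 fold change 0.93, SE 0.165, adjusted p = 0.0179, edgeR). Over all genes 0.41% rose there. The call of Kcnd1 was not followed in the other settings. Enpp2 was most like Mtmr1, Bicral and Lifr, Otx2 like Ubxn4, Chd6 and Dynlt3, Lmx1a like Pigl, Scly and D2hgdh, and Msx1 like Myo5b, Pomt2 and Rps13. Of these 12 genes, 0 were called in gtf2i/gtf2i against wt, where 0.94% of all genes were.

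Regions where Otx2, Lmx1a and Msx1 are also expressed gave these values. Of 13 midbrain and diencephalon genes, 1 rose in gtf2i/gtf2i against wt, Irx2 (0.53, SE 0.101, adjusted p = 0.0238, edgeR). Over all genes 0.41% rose. The count was 4 with the block, adding Irx1, Irx3 and Lhx5, and 4 with DESeq2, where 624 and 322 of all 11708 genes were called. It was 0 in the groups alone and 0 with Kdm5c, where Irx2 was at 0.33. The count was 0 without wt replicate 2, wt replicate 3 or gtf2i/gtf2i replicate 2, 3 without gtf2i/gtf2i replicate 1 and 5 without gtf2i/gtf2i replicate 3, where 1159 of all genes were called. Irx2 was at 0.46 to 0.59 with a library left out. Against gtf2i, where 1.33% of all genes rose, 4 rose, Irx2 (0.72), Irx3 (0.66), Lhx5 (0.66) and Irx1 (0.58). Of 7 floor plate and midbrain dopamine genes, 0 were called against wt by edgeR and 1 by DESeq2, with 3 higher and 1 lower at an unadjusted p under 0.05, as were 6.08% and 8.3% of all genes. With the block Foxa2 (0.86) and Shh (0.66) were called. Against gtf2i 2 rose, Shh (1.20) and Foxa2 (1.00). Of the 2, 1 was called with Kdm5c, 0 were called when gtf2i replicate 2 was left out, and 1 was called when gtf2i replicate 3, gtf2i/gtf2i replicate 1 or gtf2i/gtf2i replicate 2 was. Shh was at 1.20 to 1.28 and Foxa2 at 0.996 to 1.03 over the settings with all libraries kept. They were at 1.10 to 1.28 and 0.80 to 1.14 with a library left out. Of 13 mesenchyme and meninges genes, 0 were called against wt by edgeR and by DESeq2, with 4 higher and 1 lower at an unadjusted p under 0.05, beside the same 6.08% and 8.3% of all genes. With the block 3 were called, Col1a1 and Col1a2 higher and Dcn lower, where 624 of all 11708 genes were, and 6 were called without gtf2i/gtf2i replicate 3, where 1159 were. Lum rose against gtf2i (0.53), and 0 genes of the list were called there with Kdm5c, in the groups alone, with all 18 libraries, or when any gtf2i library or gtf2i/gtf2i replicate 1 or 2 was left out, while 5 were called without gtf2i/gtf2i replicate 3, where 1376 of all genes were. The log2 fold change of Lum was 0.52 to 0.53 over the settings with all libraries kept and 0.44 to 0.64 with a library left out. The summed mesenchyme level was 1062 to 1273 CPM in wt and 1184 to 1871 CPM in gtf2i/gtf2i.

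In the pigment cell list, Rlbp1 fell in gtf2i/gtf2i against gtf2i, from 24.2 to 12.6 CPM (log2 fold change -0.997, SE 0.211, adjusted p = 0.0237, edgeR), where 1.79% of all genes fell. The call was lost with Kdm5c, at -0.97, and when any gtf2i library or gtf2i/gtf2i replicate 1 was left out, and the log2 fold change ran from -1.28 to -0.74 with a library left out.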
